A study of Mus musculus with 24 samples.

Results

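Expression of 10 genes that make, carry or use the lipoyl group of mitochondrial dehydrogenases was followed in C2C12 myoblasts, an immortalized mouse muscle cell line. The genes were taken by symbol from the 55291 gene symbols of the count table, and all 10 were found. *Fdx1*, *Lias*, *Lipt2* and *Lipt1* belong to lipoate synthesis and transfer, *Dlat*, *Dlst* and *Gcsh* encode proteins that carry the lipoyl group, and *Pdha1*, *Pdhb* and *Dld* encode the E1 and E3 enzymes that work with them. RNA-seq was done on 4 cell lines, each a puromycin-selected population made with a lentiviral shRNA. They were scr (non-targeting control), *Baf180* KD, *Baf250a* KD and *Brd9* KD, and in the KD lines a subunit particular to the PBAF, BAF or ncBAF form of the SWI/SNF chromatin remodeling complex was depleted. Each line was left untreated (NT) or given 100 µM CuSO4 or 50 µM ZnSO4 for 48 h, with 2 independent biological replicates in each of the 12 groups and 24 libraries in all. The sample labels call the cells primary mouse myoblasts, whereas the methods of the study name C2C12. Values are CPM, counts per 1000000 after TMM scaling of the libraries. Genes were called changed at a Benjamini-Hochberg adjusted p under 0.05 in edgeR's quasi-likelihood test over all genes tested.

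Lipoic acid is built on the enzyme itself rather than taken up. An octanoyl chain from mitochondrial fatty acid synthesis is placed on the glycine cleavage H protein by LIPT2. LIAS inserts sulfur into it with electrons and iron-sulfur clusters to which the ferredoxin FDX1 contributes, and LIPT1 passes the finished group to the E2 subunits of the pyruvate, 2-oxoglutarate and branched-chain dehydrogenases. The lipoyl arm then swings between the E1, E2 and E3 active sites of these complexes. Copper bound to lipoylated proteins, with loss of iron-sulfur proteins, is the mechanism described for cuproptosis, a copper-dependent cell death for which FDX1 and the lipoylation enzymes are required. Proliferating myoblasts use these complexes to feed pyruvate carbon into the citric acid cycle.

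Total counts per library ran from 12719173 to 75179394 in 23 libraries. Replicate 2 of *Baf250a* KD with Zn had 495778, so that its values for these genes rest on between 1 count (*Lipt1* and *Lipt2*) and 156 counts (*Dlst*). Results that use it are given with and without it. The depleted transcripts were lower in their own KD than in untreated scr (log2 fold changes of -0.76 for *Pbrm1*, which encodes Baf180, -1.53 for *Arid1a*, which encodes Baf250a, and -0.76 for *Brd9*). The metallothionein gene *Mt2* rose with Zn in all 4 lines, by 1.10 to 3.40 on the log2 scale. With Cu it was called only in *Brd9* KD (0.56, adjusted p = 0.0283). Its Cu values were 0.48 in scr (adjusted p = 0.397), 0.26 in *Baf180* KD (adjusted p = 0.114) and 0.21 in *Baf250a* KD (adjusted p = 0.452). The metal-responsive genes *Mt1* and *Slc30a1* were called with Cu in no line. Marker sums are in CPM of total counts, without TMM scaling. The sum of 6 myoblast markers was 2974 to 4010 in scr, 1965 to 2120 in *Baf180* KD, 1315 to 1499 in *Baf250a* KD and 2035 to 2457 in *Brd9* KD. *Des*, with a median of 2043 CPM in scr, was the highest of them. *Pax7*, a satellite cell factor on that list, was at 0 to 5.41 CPM, whereas *Myod1* was at 67.6 CPM or more in every library. Median *Myod1* was 92.7 CPM in scr, 110 in *Baf180* KD, 134 in *Baf250a* KD and 80.9 in *Brd9* KD. Median *Pax7* was 1.43, 3.07, 0.81 and 3.53 CPM in the same order. *Myf5*, *Des*, *Cdh15* and *Itga7* had lower medians in each KD line than in scr. The sum of 6 myotube markers was 61.0 to 87.2 in scr, 112 to 156 in *Baf180* KD, 49.99 to 70.6 in *Baf250a* KD and 27.7 to 34.6 in *Brd9* KD. *Acta1* was the highest of them, with medians of 56.1, 56.2, 31.6 and 21.9 CPM in the same order. Median *Myog* was 5.04, 28.4, 9.60 and 2.88 CPM, and median *Myh3* 4.94, 26.7, 8.72 and 2.48. In *Baf250a* KD the medians of *Myog*, *Mymk*, *Mymx* and *Myh3* were above scr and those of *Acta1* and *Ckm* below, so the sum mixes both directions. Both sums moved with the cell line, and their part in the line differences of the 10 genes was not tested. In these bulk libraries, fewer cells of a kind and less RNA per cell cannot be told apart.

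Per kilobase of annotated exon, the 10 genes spanned a wide range, with the E1α subunit gene *Pdha1* highest and the octanoyltransferase gene *Lipt2* lowest. Mean levels over the 24 libraries, in CPM per kilobase with the SD over libraries, were 62.3 ± 13.3 for *Pdha1*, 30.9 ± 3.41 for *Dlst*, 24.1 ± 2.77 for *Dlat*, 19.7 ± 4.78 for *Dld* and 17.9 ± 1.86 for *Pdhb*. *Gcsh* followed at 13.5 ± 2.96. The 4 lipoate synthesis and transfer genes were the lowest, with *Lias* at 5.42 ± 0.708, *Lipt1* at 3.90 ± 0.886, *Fdx1* at 2.82 ± 0.577 and *Lipt2* at 1.37 ± 0.326. The intervals of 1 SD overlapped between *Dlat* and *Dld*, *Dld* and *Pdhb*, *Pdhb* and *Gcsh*, *Lias* and *Lipt1*, and *Lipt1* and *Fdx1*. This SD mixes cell lines and treatments, so it does not show whether the order of these neighbours held within each library, which was not compared. Exon lengths behind this scale ran from 1579 bases for *Gcsh* to 9559 for *Dlst*, and include exons that these cells may not use. *Dlat* and *Pdhb* varied least among the 23 deeper libraries (coefficients of variation of 10.4% and 10.5%), and *Lipt2* most (23.9%).

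**Figure D1:**
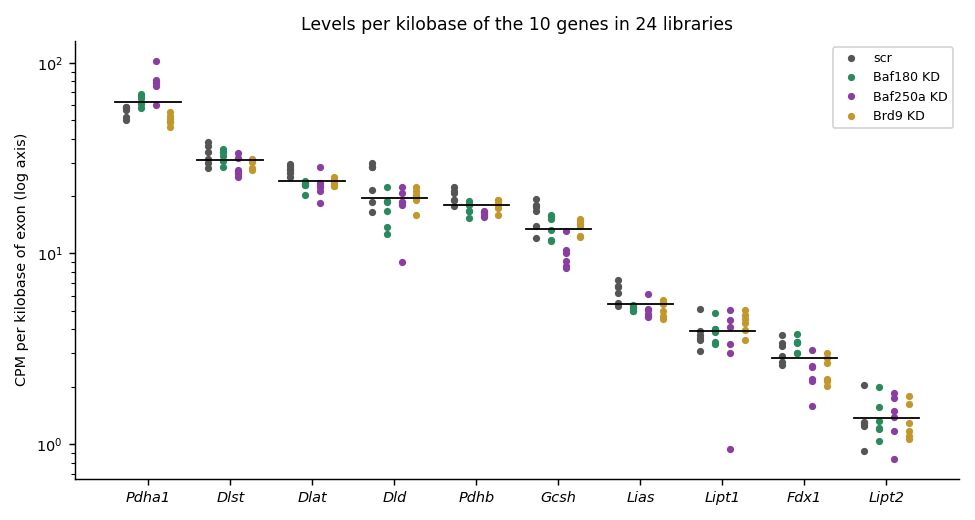
Level of each gene in CPM per kilobase of exon (log axis), 1 point per library, colored by cell line, with the mean of 24 libraries as a line. *Pdha1* has a mean of 62.3 and *Lipt2* of 1.37, and the 4 lipoate synthesis and transfer genes are the lowest of the 10.

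**Figure D2:**
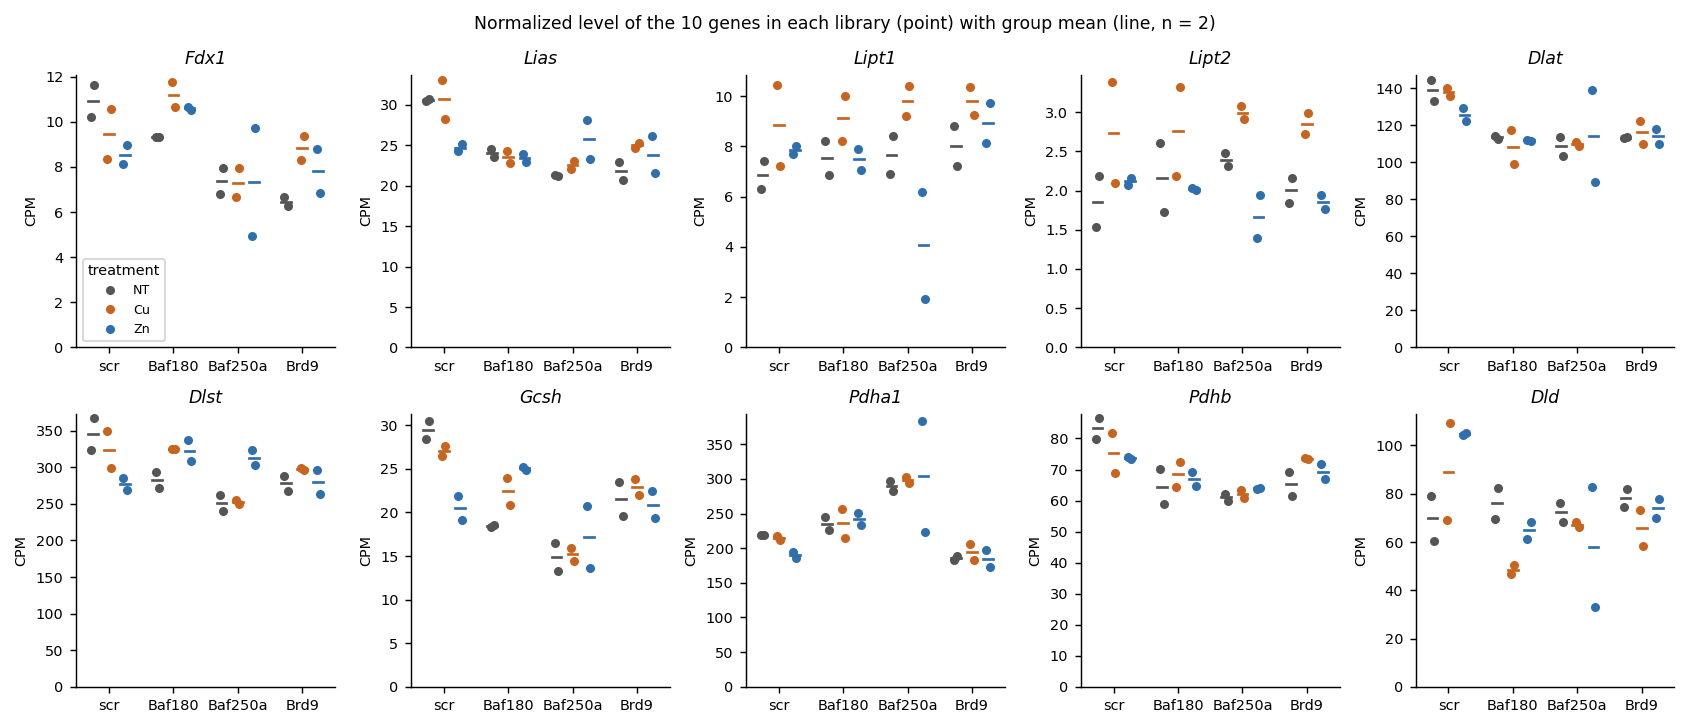
CPM of each gene in the 24 libraries, by cell line on the x axis and treatment by color, with 2 libraries (points) and their mean (line) per group. *Gcsh* is highest in untreated scr (28.5 and 30.5 CPM), *Pdha1* highest in *Baf250a* KD, and the deviating Zn point of *Baf250a* KD in *Dld* (33.1 CPM) is the library with 495778 counts.

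The KD lines were first set against scr without metal, to see how these genes differed between the lines at baseline. Each line is a selected population, so depletion of the subunit cannot be told apart from other differences between the populations. In *Baf180* KD 3 of the 10 genes were lower and 0 higher, where 41.0% of all genes tested were called (19.3% lower and 21.7% higher). In *Baf250a* KD 6 were lower and 1 higher, where 57.8% of all genes were called (28.9% lower and 28.9% higher). In *Brd9* KD 5 were lower and 0 higher, where 29.2% were called (14.1% lower and 15.1% higher). *Lias*, *Gcsh* and *Pdhb* were lower in all 3 KD lines, and *Lipt1* and *Lipt2* were called in no line. The median log2 fold change over the 10 genes was -0.24 in *Baf180*, -0.40 in *Baf250a* and -0.28 in *Brd9* KD, against 0.03, 0.00 and 0.01 over all genes tested. The 3 comparisons share the same 2 scr libraries. Here and below, non-overlap of 2 libraries with 2 only describes the values. The share of all genes with such non-overlap was not counted.

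Among the lipoate synthesis genes, *Fdx1* (mitochondrial ferredoxin, GRCm38 chromosome 9, from 51943306 to 51963556) was at 10.2 and 11.6 CPM in untreated scr, at 9.32 and 9.30 in *Baf180* KD, at 6.81 and 7.96 in *Baf250a* KD and at 6.65 and 6.28 in *Brd9* KD. The *Baf250a* and *Brd9* KD libraries all lay below both scr libraries, with log2 fold changes of -0.57 (SE 0.17, adjusted p = 0.0126) and -0.74 (SE 0.17, adjusted p = 0.0169). In *Baf180* KD the value was -0.21 (SE 0.17, adjusted p = 0.326). *Lias* (lipoyl synthase, chromosome 5, from 65391497 to 65410693) was at 30.5 and 30.7 CPM in scr and between 20.7 and 24.5 in the 6 untreated KD libraries, which did not overlap with scr. Its log2 fold changes were -0.33 in *Baf180* KD (SE 0.12, adjusted p = 0.0449), -0.52 in *Baf250a* KD (SE 0.12, adjusted p = 0.00212) and -0.47 in *Brd9* KD (SE 0.12, adjusted p = 0.0216). *Lipt1*, the lipoyl transferase gene (chromosome 1, from 37871738 to 37876228), was at 6.31 and 7.43 CPM in scr and at 6.87 to 8.81 in the KD lines. *Lipt2* (chromosome 7, from 100159277 to 100161365) was at 1.53 and 2.18 CPM in scr and 1.73 to 2.60 in the KD lines. Both *Lipt2* libraries of *Baf250a* KD were above scr, and in the other cases KD and scr overlapped for these transferases. The SE of *Lipt2* was up to 0.35, so that only large changes could have been called.

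Of the lipoylated proteins, *Gcsh*, which encodes the H protein of the glycine cleavage system (chromosome 8, from 116981810 to 116993537), had the lowest log2 fold change of the 10 genes in *Baf180* and *Baf250a* KD. Its untreated levels were 28.5 and 30.5 CPM in scr, 18.4 and 18.5 in *Baf180* KD, 16.4 and 13.3 in *Baf250a* KD, and 23.5 and 19.6 in *Brd9* KD, with no overlap between scr and any KD line. The log2 fold changes were -0.66 (SE 0.13, adjusted p = 0.00179), -0.99 (SE 0.14, adjusted p = 5.87e-05) and -0.44 (SE 0.13, adjusted p = 0.0369). *Dlst*, the E2 gene of the 2-oxoglutarate dehydrogenase complex (chromosome 12, from 85110833 to 85134845), was at 324 and 367 CPM in scr, 293 and 271 in *Baf180* KD, 262 and 240 in *Baf250a* KD, and 288 and 268 in *Brd9* KD. All 6 KD libraries were below scr, and the call was made in *Baf250a* KD (log2 fold change -0.46, adjusted p = 0.00220) and in *Brd9* KD (-0.29, adjusted p = 0.0495). *Dlat*, the E2 gene of the pyruvate dehydrogenase complex (PDH; chromosome 9, from 50634633 to 50659780), was at 145 and 133 CPM in scr and between 103 and 115 in the 6 KD libraries. It was called in *Baf250a* KD (-0.36, adjusted p = 0.0123), but not in *Baf180* KD (-0.28, adjusted p = 0.0508) or *Brd9* KD (-0.28, adjusted p = 0.0657).

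The genes of the 2 PDH E1 subunits went apart in *Baf250a* KD. *Pdhb*, for E1β (chromosome 14, from 8165996 to 8173025), was at 80.0 and 86.6 CPM in scr, 70.1 and 58.9 in *Baf180* KD, 62.2 and 59.8 in *Baf250a* KD, and 69.1 and 61.5 in *Brd9* KD. It was lower in each KD line, with log2 fold changes of -0.35 (adjusted p = 0.0268), -0.45 (adjusted p = 0.00260) and -0.33 (adjusted p = 0.0432). *Pdha1*, for E1α (chromosome X, from 160122209 to 160138413), was at 219 CPM in both scr libraries and at 297 and 283 in *Baf250a* KD, a log2 fold change of 0.41 (SE 0.10, adjusted p = 0.00316). It was at 245 and 226 CPM in *Baf180* KD (0.12, adjusted p = 0.351) and at 183 and 189 in *Brd9* KD (-0.22, adjusted p = 0.106). Within each library, the ratio of *Pdha1* to *Pdhb* in CPM per kilobase was 2.61 to 3.18 in the 6 scr libraries, 3.07 to 4.13 in *Baf180* KD, 3.60 to 6.21 in *Baf250a* KD and 2.59 to 3.17 in *Brd9* KD. These ratios were computed after the values were seen and were not tested.

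*Dld* encodes dihydrolipoamide dehydrogenase, the E3 enzyme shared by all lipoate-dependent complexes (chromosome 12, from 31331277 to 31351453). It was at 79.2 and 60.6 CPM in untreated scr and between 68.3 and 82.6 in the untreated KD libraries, which overlapped with scr, and was not called (log2 fold changes of 0.14, 0.05 and 0.18). Its transcript has the lowest GC content of the 10, 40.6%, at the 10.1 percentile of the genes tested. Log2 fold changes went with GC content in these comparisons (Spearman's rho of -0.29, -0.25 and -0.40 in *Baf180*, *Baf250a* and *Brd9* KD). This and each later rho with GC content is over the protein-coding genes tested. With an offset for GC content and length in each library, *Dld* was lower in all 3 KD lines, at -0.30 (adjusted p = 0.0232), -0.44 (adjusted p = 0.00351) and -0.28 (adjusted p = 0.0350), so that its sign at baseline depends on this correction. With this offset, 7 of the 10 genes were called in *Baf180* KD and 8 in *Brd9* KD, beside 6700 of 14851 and 4464 of 14277 genes tested.

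The baseline calls rest on 2 libraries a group. Without either of the untreated *Brd9* KD libraries, 0 genes were called in that line, and 2 without scr replicate 2. In *Baf180* KD, 1 gene was called without KD replicate 2 and 5 without scr replicate 1. In *Baf250a* KD, 4 were called without either KD library. The *Gcsh* call in *Baf180* KD and the *Gcsh* and *Lias* calls in *Baf250a* KD held with each of the 4 libraries left out.

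**Figure D3:**
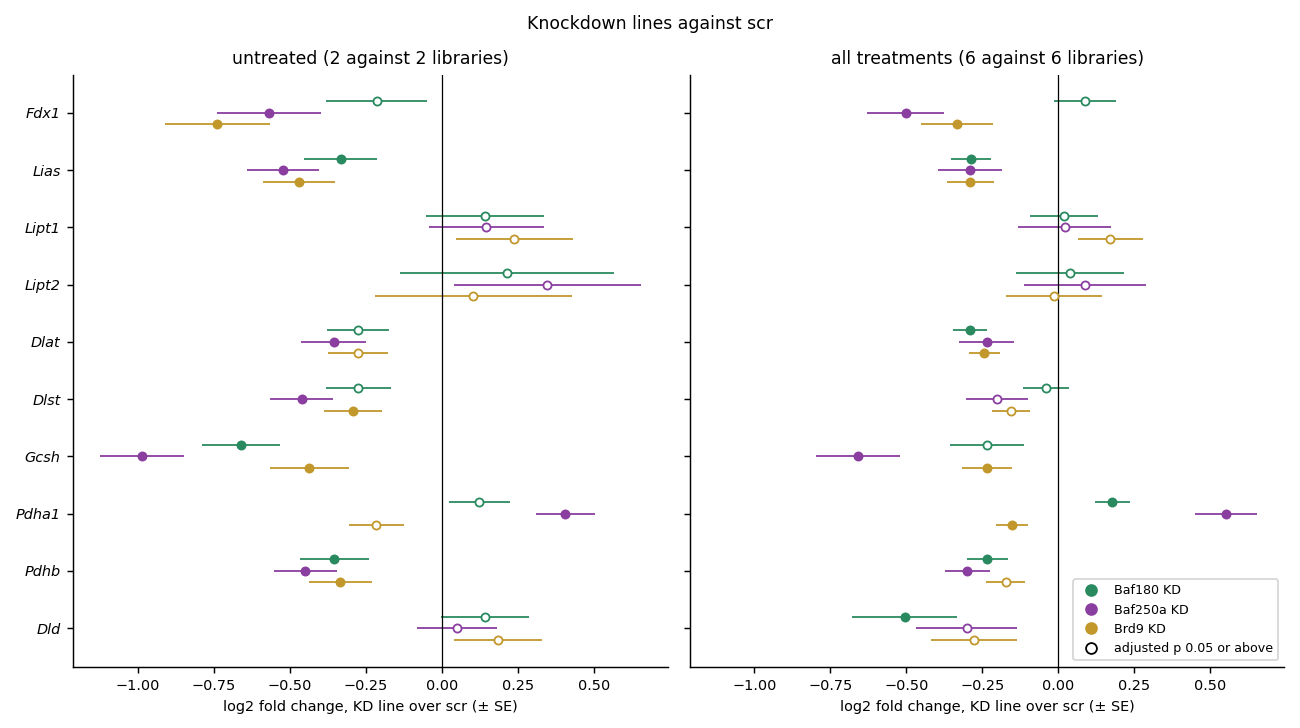
Log2 fold change of each gene in the 3 KD lines over scr, with its SE, without metal (left, 2 against 2 libraries) and over all treatments (right, 6 against 6). Filled points passed the adjusted p threshold. *Gcsh* in untreated *Baf250a* KD has the lowest value, -0.99, and *Pdha1* in *Baf250a* KD over all treatments the highest, 0.55.

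Over all 3 treatments, with treatment as a term in the fit, the line differences rest on 6 libraries against 6. In *Baf180* KD 4 of the 10 genes were lower and 1 higher (41.3% of all genes tested were called, 19.1% lower and 22.2% higher). In *Baf250a* KD 5 were lower and 1 higher (51.8% called, 25.0% lower and 26.7% higher). In *Brd9* KD 5 were lower and 0 higher (32.8% called, 16.4% in each direction). *Lias* and *Dlat* were lower in all 3 lines, with *Lias* at -0.29 in each and *Dlat* at -0.29, -0.24 and -0.24 on the log2 scale. *Dlat* ranged from 123 to 145 CPM in scr (median 135), from 99.0 to 117 in *Baf180* KD (median 112) and from 110 to 122 in *Brd9* KD (median 113), so that all 6 libraries of each of these lines were below all 6 of scr. Of all genes, 8.85% in *Baf180* KD and 6.36% in *Brd9* KD had all 6 libraries below scr. Libraries all above scr were seen for 0 of the 10 genes in these lines, against 14.6% and 9.33% of all genes. *Fdx1* was lower in *Baf250a* KD (-0.50, SE 0.13, adjusted p = 0.00438) and *Brd9* KD (-0.33, SE 0.12, adjusted p = 0.0452), and at 0.09 (SE 0.10, adjusted p = 0.532) in *Baf180* KD.

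The opposite course of the E1 subunit genes in *Baf250a* KD was seen over all treatments too. *Pdha1* was at 186 to 219 CPM in scr and 224 to 383 in *Baf250a* KD (log2 fold change 0.55, SE 0.10, adjusted p = 4.14e-04). *Pdhb* was at 68.9 to 86.6 in scr and 59.8 to 64.2 in *Baf250a* KD (-0.30, SE 0.07, adjusted p = 0.00382). Neither gene's libraries overlapped between the lines, which holds for 14.0% of all genes above and 13.5% below scr. *Pdha1* was also higher in *Baf180* KD (0.18, adjusted p = 0.0258, and 0.12 with an adjusted p of 0.219 with the GC and length offset) and lower in *Brd9* KD (-0.15, adjusted p = 0.0370). *Gcsh* was lower in *Baf250a* KD (-0.66, SE 0.14, adjusted p = 0.00115) and *Brd9* KD (-0.23, adjusted p = 0.0415), but its *Brd9* KD and scr ranges overlapped (19.3 to 23.9 and 19.1 to 30.5 CPM). Some calls made without metal were not made here. *Gcsh* in *Baf180* KD was at -0.24 (adjusted p = 0.144), with 25.3 and 24.9 CPM with Zn against 21.9 and 19.1 in scr with Zn. *Pdhb* in *Brd9* KD was at -0.17 (adjusted p = 0.0556). *Dlst* was called in no line (adjusted p = 0.706, 0.113 and 0.0745 in *Baf180*, *Baf250a* and *Brd9* KD). *Dld* was lower in *Baf180* KD, with 46.6 to 82.6 CPM against 60.6 to 109 in scr (-0.51, SE 0.17, adjusted p = 0.0331). Its call was lost without any 1 of *Baf180* KD Cu or Zn replicate 1 or 2, scr Cu replicate 2 and scr Zn replicate 1 or 2. In that line 3 genes rather than 5 were called without *Baf180* KD Cu replicate 1, Zn replicate 1 or 2, or scr Zn replicate 1.

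Without the *Baf250a* KD library of 495778 counts, *Pdha1* was at 0.60, *Pdhb* at -0.31, *Gcsh* at -0.66, *Fdx1* at -0.54 and *Lias* at -0.30 in *Baf250a* KD, all called, and *Dlat* at -0.21 was not (adjusted p = 0.0579). *Dlat* kept its call there in 3 of 12 fits without 1 library (without *Baf250a* KD Zn replicate 1, scr NT replicate 2 or scr Zn replicate 2). *Lias* kept it in 5 (without *Baf250a* KD Zn replicate 1 or 2, scr Cu replicate 2 or scr Zn replicate 1 or 2). In *Brd9* KD 2 or 3 genes rather than 5 were called without any 1 of 9 libraries, all but *Brd9* KD Zn replicate 1 and scr Cu and Zn replicate 2. There *Lias* and *Dlat* held in all 12 fits that left out 1 library, *Fdx1* and *Pdha1* in 4 and *Gcsh* in 2.

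The metals were compared with NT in each line to ask whether Cu or Zn moved these genes. Metal-responsive transcription in mammals runs mainly through MTF1, a zinc finger factor that binds metal response elements. Promoter windows from RefSeq (GRCm38.p6, 250 bases before to 50 after the start) were found for all 10 genes. The metal response element core TGCACNC or TGCGCNC, searched on both strands, was in 4 of the 10 (*Fdx1*, *Lipt2*, *Dlat* and *Gcsh*). Of all 32851 windows, 25.7% held it. The stretches upstream of the start in *Fdx1*, *Dlat* and *Gcsh* are printed 5′ to 3′ on the strand of the gene beside one from *Mt1*, a classic MTF1 target, with the core in capitals (in *Fdx1* as its reverse complement):
*Fdx1*, chr9:51963677-51963723, minus strand: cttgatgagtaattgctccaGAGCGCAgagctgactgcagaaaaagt
*Dlat*, chr9:50659916-50659962, minus strand: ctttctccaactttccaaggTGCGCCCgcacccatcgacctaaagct
*Gcsh*, chr8:116993579-116993625, minus strand: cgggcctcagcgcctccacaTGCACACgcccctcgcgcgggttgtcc
*Mt1*, chr8:94179046-94179092, plus strand: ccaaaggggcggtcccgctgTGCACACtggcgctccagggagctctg

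Cu changed few of the 10 genes. By edgeR, 0 were called in scr (0 at an unadjusted p under 0.05, and 0.0333% of all genes called), 0 in *Baf250a* KD (1 unadjusted, 1.27%) and 0 in *Brd9* KD (2 unadjusted, 0.274%). DESeq2 also called 0 in each of these lines. In *Baf180* KD 1 gene was called (13.8% of all genes): *Dld* was at 69.4 and 82.6 CPM without metal and at 46.6 and 50.4 with Cu, and fell by 0.68 on the log2 scale (SE 0.12, adjusted p = 0.00985). The groups did not overlap, but fold changes in this comparison went with GC content over protein-coding genes (rho = 0.54), and with the GC and length offset *Dld* was at -0.32 and no longer called (adjusted p = 0.0675). Its call was also lost without *Baf180* KD Cu replicate 1 (adjusted p = 0.0834) or NT replicate 2 (adjusted p = 0.0986). With the replicate number as a block, since samples of this line with the same number deviated together, *Dld* was called (-0.68, adjusted p = 1.24e-04), and 3892 rather than 2097 of 15241 genes were. *Fdx1*, required for Cu-dependent cell death, was at 8.36 and 10.5 CPM with Cu in scr, against 10.2 and 11.6 without metal. Its log2 fold changes with Cu were -0.17, 0.23, -0.02 and 0.40 in scr, *Baf180*, *Baf250a* and *Brd9* KD (SE 0.13 to 0.18), of which 0 passed. In *Brd9* KD it was at 8.32 and 9.37 CPM with Cu, above 6.65 and 6.28 without (edgeR, unadjusted p = 0.0348, adjusted p = 0.285). *Lipt1* and *Lipt2* had positive values for Cu in all 4 lines (0.23 to 0.36 and 0.32 to 0.52), again with 0 called. *Dld* was at 0.38 in scr, -0.11 in *Baf250a* KD and -0.31 in *Brd9* KD with Cu, not called. The remaining 6 genes lay between -0.13 and 0.25 for Cu in every line.

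Zn changed 1 gene in scr and 1 in *Baf250a* KD, where 17.6% and 15.9% of all genes were called. In scr, *Gcsh* went from 28.5 and 30.5 CPM to 21.9 and 19.1, with no overlap, and fell by 0.44 on the log2 scale (SE 0.11, adjusted p = 0.0362). With the GC and length offset it was at -0.49 and not called (adjusted p = 0.0843; rho of fold change and GC content over genes = -0.70). Over all genes, 2645 of 15002 were called for Zn in scr, 16 with the offset and 14 with the replicate block. The call was lost without any of the 4 libraries compared (adjusted p = 0.0604 and 0.207 without NT replicate 1 and 2, and 0.139 and 0.337 without Zn replicate 1 and 2). In *Baf250a* KD, *Dlst* went from 262 and 240 CPM to 323 and 303, with no overlap, and rose by 0.35 (SE 0.10, adjusted p = 0.0180). Without the library of 495778 counts it was at 0.36 (adjusted p = 0.00281), and *Lias* (0.39), *Dlat* (0.34), *Gcsh* (0.47) and *Pdha1* (0.39) were called as well, with 1 Zn library against 2. With the GC and length offset *Dlst* was at 0.40 (adjusted p = 0.0628), and *Dld* was called instead (0.48, adjusted p = 0.0443). The *Dlst* call was also lost with DESeq2, and without *Baf250a* KD Zn replicate 1, NT replicate 1 or 2 or Cu replicate 1 or 2 (adjusted p = 0.0713 to 0.352). In *Baf180* KD 0 genes were called (2 unadjusted, 0 by DESeq2, and 0.0197% of all genes), with *Gcsh* at 0.42 (SE 0.11, adjusted p = 0.317) and its libraries at 25.3 and 24.9 CPM with Zn against 18.4 and 18.5 without. With the replicate block, *Gcsh* was called in this line (0.43, adjusted p = 0.0499), as were 657 rather than 3 of 15241 genes. In *Brd9* KD 0 were called (0 unadjusted, 0 by DESeq2, and 0.0334% of all genes). *Fdx1* was at -0.26, 0.17, -0.51 and 0.27 with Zn in scr, *Baf180*, *Baf250a* and *Brd9* KD, not called. Its *Baf250a* KD value uses the library of 495778 counts.

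**Figure D4:**
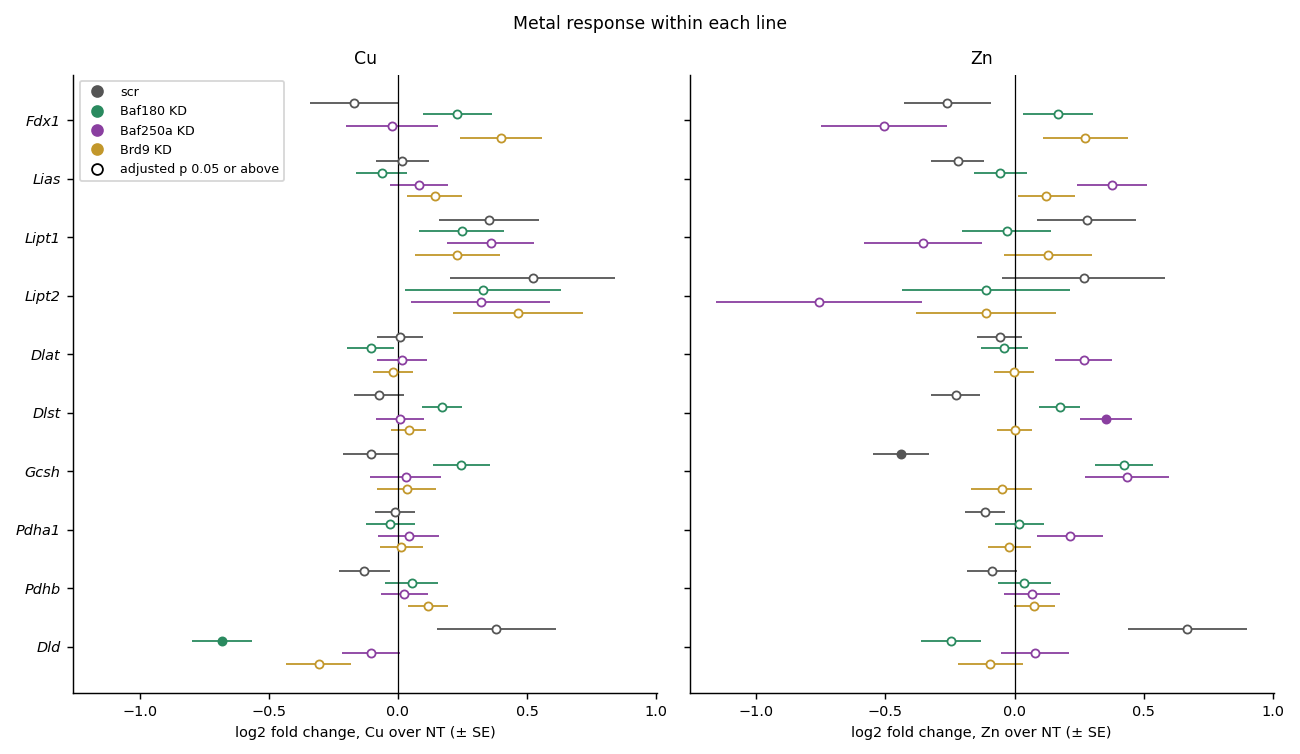
Log2 fold change of each gene with Cu (left) or Zn (right) over NT in the 4 lines, with its SE. Filled points passed the adjusted p threshold: *Dld* with Cu in *Baf180* KD (-0.68), *Gcsh* with Zn in scr (-0.44) and *Dlst* with Zn in *Baf250a* KD (0.35).

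Whether a KD line responded differently from scr was tested as the difference of the 2 log2 fold changes, in a fit of all 24 libraries. For Zn, 3 genes differed in *Baf180* KD (28.7% of all genes called), 3 in *Baf250a* KD (30.5%) and 0 in *Brd9* KD (5 unadjusted, 0 by DESeq2, 11.1%). *Gcsh* was higher relative to scr with Zn in *Baf180* KD by 0.97 (SE 0.18, adjusted p = 0.00121) and in *Baf250a* KD by 0.95 (SE 0.20, adjusted p = 0.00151). In the plot of CPM by library its Zn points lie below NT in scr and above NT in *Baf180* KD. *Dlst* differed by 0.51 (SE 0.13, adjusted p = 0.00782) and 0.65 (SE 0.14, adjusted p = 0.00161) in the same lines. It was at 285 and 269 CPM with Zn in scr, against 324 and 367 without, and at 337 and 309 against 293 and 271 in *Baf180* KD. *Lias* differed in *Baf250a* KD, by 0.68 (SE 0.16, adjusted p = 0.00355), with 24.3 and 25.1 CPM in Zn-treated scr, and 28.1 and 23.3 in Zn-treated *Baf250a* KD. Values of the same sign were not called for *Lias* in *Baf180* KD (0.27, adjusted p = 0.181) or for all 3 genes in *Brd9* KD. There *Gcsh* was at 0.49 (adjusted p = 0.0774), *Dlst* at 0.33 (adjusted p = 0.107) and *Lias* at 0.44 (adjusted p = 0.0567). All these comparisons share the scr libraries, where *Gcsh*, *Dlst* and *Lias* were at -0.44, -0.23 and -0.22 with Zn. Fold changes in scr went with GC content over protein-coding genes (rho of -0.53 for Cu and -0.70 for Zn), as did the differences from scr (rho from 0.46 to 0.65). With the GC and length offset the *Gcsh* differences in *Baf180* and *Baf250a* KD were 0.96 (adjusted p = 0.00706) and 1.06 (adjusted p = 0.00157). Those of *Dlst* in the same lines were 0.49 (adjusted p = 0.0221) and 0.71 (adjusted p = 0.00101). That of *Lias* in *Baf250a* KD was 0.76 (adjusted p = 0.00203), and all of these were called. Over all 16524 genes the offset took the Zn calls from 4742 to 1247 in *Baf180* KD, from 5036 to 3023 in *Baf250a* KD and from 1837 to 0 in *Brd9* KD.

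*Dld* went the other way and with the GC trend. In scr it was at 104 and 105 CPM with Zn and at 69.0 and 109 with Cu, against 79.2 and 60.6 without metal, and in *Baf180* KD at 61.3 and 68.3 with Zn and 46.6 and 50.4 with Cu, against 69.4 and 82.6. The *Baf180* KD response differed from that of scr by -1.01 for Cu (SE 0.28, adjusted p = 0.0236, the single gene of the 10, with 12.8% of all genes called) and -0.81 for Zn (SE 0.28, adjusted p = 0.0323). With the offset these were -0.51 (adjusted p = 0.0977) and -0.04 (adjusted p = 0.912), and the calls ended. For Cu, 0 genes differed in *Baf250a* KD (0 unadjusted, 0 by DESeq2, 0.0121%) and 0 in *Brd9* KD (3 unadjusted, 0 by DESeq2, 0.0363%). Those 3 were *Fdx1* (0.64, adjusted p = 0.241), *Dld* (-0.61) and *Pdhb* (0.32). The *Dld* differences were negative in each KD line, though not called outside *Baf180* KD. They were -0.47 for Cu and -0.58 for Zn in *Baf250a* KD, and -0.67 for Zn in *Brd9* KD. The *Dld* responses of scr itself, 0.38 for Cu and 0.67 for Zn, enter all of them.

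Single libraries also bore on these differences. Those of *Gcsh* in *Baf180* KD and *Dlst* in *Baf250a* KD held in all 24 fits that left out 1 library. Without *Baf250a* KD Zn replicate 1, which leaves the library of 495778 counts as the lone Zn library of that line, *Lias* was at 0.43 (adjusted p = 0.670) and *Gcsh* at 0.39 (adjusted p = 0.744). Without replicate 2 they were at 0.71 (adjusted p = 0.00306) and 1.00 (adjusted p = 0.00108), with *Dlat* (0.50) and *Pdha1* (0.60) called besides. *Dlst* in *Baf180* KD fell short without *Baf180* KD NT replicate 2 or Zn replicate 1, or scr NT or Zn replicate 2 (0.41 to 0.47, adjusted p = 0.0513 to 0.0740). The Cu difference of *Dld* was lost without *Baf180* KD Cu replicate 1 or NT replicate 2, or scr Cu or NT replicate 2 (-0.96 to -0.63). Its Zn difference was lost without *Baf180* KD NT replicate 2 or Zn replicate 1, or scr NT replicate 2 or Zn replicate 1 or 2 (-0.83 to -0.64).

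**Figure D5:**
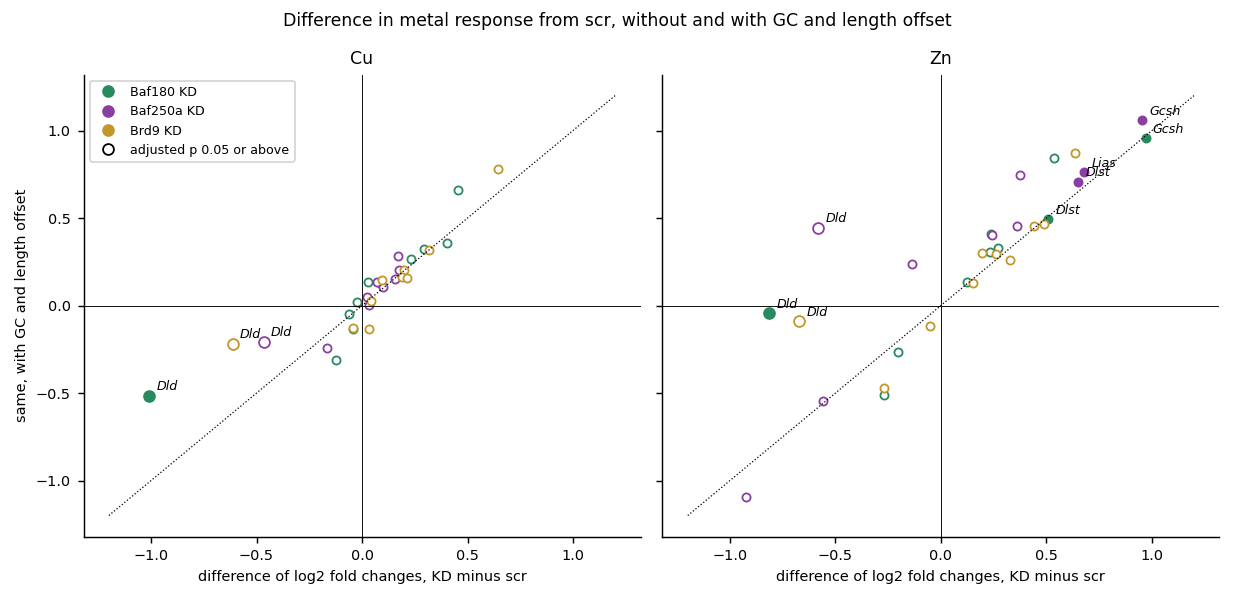
Difference of log2 fold changes (KD minus scr) of each gene for Cu (left) and Zn (right), as fitted (x axis) and with the GC and length offset (y axis), with the dotted line of equality. Filled points passed the adjusted p threshold without the offset. *Gcsh*, *Dlst* and *Lias* stay near the line, whereas *Dld* in *Baf180* KD with Zn moves from -0.81 to -0.04.

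Beyond the 10 genes, 59 others of the same pathway were listed, and in the untreated KD lines most of those called were lower. In *Baf180* KD 20 were lower and 5 higher of 56 tested, in *Baf250a* KD 26 and 10 of 55, and in *Brd9* KD 22 and 4 of 56. The share called was 44.6%, 65.5% and 46.4%, against 41.0%, 57.8% and 29.2% of all genes. The largest list, pyruvate import and the citric acid cycle (17 genes), had 9 lower and 1 higher in *Baf180* KD, 10 and 1 in *Baf250a* KD and 9 and 1 in *Brd9* KD. Its median log2 fold changes were -0.37, -0.54 and -0.43 (0.03, 0.00 and 0.01 over all genes). *Sdhb*, for the iron-sulfur subunit of succinate dehydrogenase, was lower in *Baf180* KD (log2 fold change -1.30, SE 0.14, adjusted p = 3.25e-05), and *Suclg1*, for a succinyl-CoA ligase subunit, had -0.69 in *Brd9* KD (adjusted p = 0.00657). *Pcx*, for pyruvate carboxylase, was the higher gene in *Baf250a* KD, at 15.0 and 19.0 CPM in scr and 56.7 and 51.1 in *Baf250a* KD (1.66, SE 0.13, adjusted p = 4.23e-07).

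Iron-sulfur cluster assembly, on which LIAS depends, had 5 of 14, 7 of 13 and 7 of 13 tested genes lower in *Baf180*, *Baf250a* and *Brd9* KD and 0 higher. For this and the other lists, the shares of all genes called lower were 19.3%, 28.9% and 14.1%, and those called higher 21.7%, 28.9% and 15.1%. *Iba57*, a late-acting assembly factor needed for lipoyl synthase, had the largest change on this list in each line. It was at 11.5 and 12.6 CPM in untreated scr and between 4.39 and 6.01 in the 6 untreated KD libraries, with log2 fold changes of -1.08 (adjusted p = 5.98e-04), -1.12 (adjusted p = 1.07e-04) and -1.28 (adjusted p = 0.00241). In mitochondrial fatty acid synthesis, which supplies the octanoyl chain, 3 of 6, 4 of 6 and 3 of 7 were lower and 0, 1 and 0 higher. The largest changes were those of *Acsf3* (malonyl-CoA synthetase, -0.62 in *Baf180* and -0.56 in *Brd9* KD) and *Mecr* (the last reductase of the pathway, -0.91 in *Baf250a* KD). Lists of the other subunits of lipoate-dependent complexes were mixed, with 2 higher and 3 lower of 9 in *Baf180* and in *Baf250a* KD and 1 higher and 2 lower in *Brd9* KD. Within that list, *Pdhx*, for the E3-binding protein of PDH, was at -0.73 in *Baf180* KD (adjusted p = 7.22e-04). *Bckdhb*, for a branched-chain E1 subunit, was higher in *Baf250a* and *Brd9* KD (1.88 and 1.98, SE 0.59 and 0.53), but on very few reads. Its untreated libraries were at 0.57 and 0.19 CPM in scr, 1.82 and 0.80 in *Baf250a* KD, and 1.58 and 1.21 in *Brd9* KD.

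Of 9 kinases and phosphatases that switch PDH and the branched-chain complex off and on, 2 were higher and 0 lower in *Baf180* KD, 6 and 1 in *Baf250a* KD, and 2 and 1 in *Brd9* KD (medians 0.08, 0.60 and 0.01). *Pdk4*, the PDH kinase induced when cells spare glucose, was at 13.6 and 13.3 CPM in untreated scr, 43.8 and 35.8 in *Baf180* KD and 108 and 101 in *Baf250a* KD, which did not overlap. Its log2 fold changes were 1.58 (adjusted p = 4.43e-06) and 2.96 (adjusted p = 4.63e-10). In *Brd9* KD its libraries were at 16.6 and 17.1 CPM, and the largest change on the list was that of the PDH phosphatase gene *Pdp1* (0.86, adjusted p = 0.00624). *Mtf1*, the gene of the metal-responsive factor, was lower in *Baf250a* KD (-0.56, adjusted p = 7.96e-04). Untreated, it was at 50.9 and 48.8 CPM in scr and at 33.0 and 34.6 in *Baf250a* KD. The *Baf180* KD (41.7 and 41.0) and *Brd9* KD libraries (47.9 and 41.6) were below scr too. These are RNA values, whereas the study reports unaltered MTF1 protein in the KD lines, measured by microscopy.

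The metals moved fewer of these 59 genes. The share called was 12.3% for Cu in *Baf180* KD, 16.1% for Zn in scr and 10.9% for Zn in *Baf250a* KD, against 13.8%, 17.6% and 15.9% of all genes. With Cu in *Baf180* KD 4 were higher and 3 lower of 57, including *Ppm1k*, the branched-chain complex phosphatase gene (-0.83, adjusted p = 0.0342), *Cbr4* of fatty acid synthesis (-0.83, adjusted p = 0.0124) and *Sucla2* (-0.49, adjusted p = 0.0195). With Zn in scr 1 was higher and 8 lower of 56, among them *Mcat* (-0.60), *Iba57* (-0.58), *Bckdha* (-0.49) and *Pcx* (-0.47) as lower and *Pdp1* (0.62, but -0.20 with the GC and length offset) as higher. With Zn in *Baf250a* KD 6 were higher and 0 lower of 55, with *Mecr* (0.52), *Bola3* (0.48), *Idh3a* (0.43) and *Pdhx* (0.41) as the largest of their lists. Against scr, the Zn response was higher for 19 and lower for 1 of 57 in *Baf180* KD, for 22 and 1 in *Baf250a* KD, and for 5 and 1 in *Brd9* KD. These are 35.1%, 40.4% and 10.5% of the list, against 28.7%, 30.5% and 11.1% of all genes, and the list was not counted with the GC and length offset.

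Across the 24 libraries, the genes whose log2 CPM was most like that of *Fdx1* among 10420 genes with a mean of at least 5 CPM were *Tnfaip2* (Pearson's r = 0.84), *Bri3* (0.82), *Tns2* (0.79), *Gm11942* (0.79) and *Fkbp11* (0.77). These points share cell lines and GC trends, and r without the library of 495778 counts was 0.77 to 0.86 for the same genes. Among the 10 genes themselves, over the 23 deeper libraries, r was highest for *Dlst* and *Gcsh* (0.86), *Lias* and *Dlat* (0.85), and *Lias* and *Pdhb* (0.75), whereas *Pdha1* had -0.46 with *Pdhb* and *Fdx1* 0.31 with *Lias*.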

How the data were processed

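Members and gene lists were chosen with earlier results of these data known. RNA depleted of ribosomal RNA with RNase H was made into strand-specific libraries, and per the labels and the methods of the study the authors aligned reads to mm10 with STAR (unique reads only). The deposited counts are whole read pairs per gene symbol from featureCounts, not normalized. Tables of the authors' own DESeq2 comparisons were not used. Samples were grouped by title, since a treatment tag contradicts it.

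Counts were tested in R 4.3.3 with edgeR 4.0.16 (quasi-likelihood, TMM, filterByExpr; limma 3.58.1 loaded), two-sided, after checks on simulated data. All 10 members passed the filter in every fit. Fits used the 6 libraries of a line (metals), 4 (KD against scr, untreated), 12 (all treatments) or 24 (differences of responses). Alternatives were RLE factors, genes with at least 1 count, a replicate block, an offset for GC content and length (spline, 5 df, GENCODE M21), all 24 libraries, DESeq2 1.42.0, and leaving out each library. Pathway genes named had the largest change per list and comparison. CPM in log2 had a prior count of 2. Protein sequences were not used here. Within *Baf180* KD, samples of the same replicate number deviated together (correlations of 0.134, 0.247 and 0.153), a pairing seen in the data and not stated in the labels. It was not particular to this line, with 0.280 for Cu and Zn in scr and 0.187 for NT and Zn in *Brd9* KD. A listed gene is not reported here.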

Additional observations from a re-analysis of the deposited data

Results flagged for a closer look

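For 7 pairs of gene and line, the response to a metal differed from that of scr in a test of the difference itself (edgeR, all 24 libraries). With Zn, *Gcsh* differed by 0.97 in *Baf180* KD (adjusted p = 0.00121) and 0.95 in *Baf250a* KD (adjusted p = 0.00151), and *Dlst* by 0.51 (adjusted p = 0.00782) and 0.65 (adjusted p = 0.00161). *Lias* differed by 0.68 with Zn in *Baf250a* KD (adjusted p = 0.00355). *Dld* differed in *Baf180* KD by -1.01 with Cu (adjusted p = 0.0236) and -0.81 with Zn (adjusted p = 0.0323). All 7 share the scr libraries, and those in *Baf250a* KD use the library of 495778 counts. Over RLE factors, no filter on low counts, the block and DESeq2, all 7 stayed called, and with the GC and length offset the *Dld* differences were at -0.51 and -0.04 and were not called.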

How the results depend on the processing

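Counts of the 10 genes called changed by over 1.5 times under these settings, and the cause was not tested. With the GC and length offset, *Dld* in untreated KD lines turned to -0.30, -0.44 and -0.28 in *Baf180*, *Baf250a* and *Brd9* KD, and *Pdp1* with Zn in scr to -0.20. That offset called 7 (3 without it) in *Baf180* and 8 (5) in *Brd9* KD untreated, 8 (5) in *Brd9* KD over all treatments, 0 (1) for Cu in *Baf180* KD, 0 (1) for Zn in scr, 0 (1) for the Cu difference of *Baf180* KD and 5 (3) for the Zn difference of *Baf250a* KD. Over all genes it called 6700 (6087), 4464 (4165), 6756 (5158), 711 (2097), 16 (2645), 102 (2116) and 3023 (5036) in the same order. With all genes of at least 1 count, 1 was called (0) for Cu in scr and for the Cu and Zn differences of *Brd9* KD, and 2 (1) for Zn in scr. Over all genes these were 758 (5), 983 (6), 2208 (1837) and 3768 (2645). All 24 libraries gave 5 (3) in untreated *Baf180* KD, 0 (1) for Zn in *Baf250a* KD and 4 (1) for Zn in scr. Of all 16524 genes tested there, 6881 (6087), 805 (2334) and 4968 (2645) were called. DESeq2 gave 3 (5) in untreated *Brd9* KD, 0 (1) for Zn in *Baf250a* KD and 2 (1) for Zn in scr. Its counts over all genes were 3275 of 13673 (4165 of 14277), 330 of 7552 (2334 of 14706) and 3196 of 13503 (2645 of 15002).

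Correlations of replicate deviations over 15 pairs of groups ran from -0.185 to 0.280. Of these, 5 were over 0.1: all 3 within *Baf180* KD, Cu and Zn in scr (0.280), and NT and Zn in *Brd9* KD (0.187). The labels state no pairing, and the main fits took the samples of every line to share only a number. With the replicate block, 1 gene (3) was called in untreated *Baf180* KD, 1 (5) in untreated *Brd9* KD, 0 (1) for Zn in scr, 1 (0) for Zn in *Baf180* KD and 2 (0) for the Zn difference of *Brd9* KD. Over all genes the block called 5237 (6087), 3566 (4165), 14 (2645), 657 (3) and 2639 (1837) in the same order.

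Without 1 library at a time (96 fits), counts ran as follows. Untreated: *Baf180* KD 1 to 5, *Baf250a* KD 4 to 8, *Brd9* KD 0 to 6. All treatments: *Baf180* KD 3 to 5, *Baf250a* KD 4 to 7, *Brd9* KD 2 to 6. Metals: Cu in *Baf180* KD 0 to 1, Zn in scr 0 to 2, Zn in *Baf250a* KD 0 to 5, and 0 in the other 5. Differences: Cu *Baf180* KD 0 to 2, Cu *Brd9* KD 0 to 1, Zn *Baf180* KD 1 to 3, Zn *Baf250a* KD 2 to 5, Zn *Brd9* KD 0 to 2. With a group of 1 library, that library is assumed to vary like the others. Counts over all genes in these fits are not given here. In these fits 0 values of the 10 genes turned sign where called. RLE factors moved 1 value of the 10 genes past the threshold. Depth limits *Lipt1* and *Lipt2* most, with 1 count each in the smallest library.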
